A study of Mus musculus with 7 samples.

Results

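The BEN domain genes measured here were BEND5, BEND3, BEND4, BEND6, BEND7, NACC1 and NACC2, which are 7 of the 34082 gene names and 30 of the 107384 transcripts in the deposited values. They were found by name, ignoring case, and BEND5 was chosen by its fall and its switch of transcripts between the groups compared here, so its values are given as a description with no test. Islet RNA was sequenced on day 15 of pregnancy from 4 βPrlR+/- mice and 3 Prlr+/- mice, 1 library per mouse, to ask what loss of the prolactin receptor outside β-cells adds to its loss in β-cells.

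All mice were C57BL/6 dams mated to wild type males, and islets were hand-picked, 100 to 200 per mouse. In the βPrlR+/- mice, titled CkoWt by the submitters, a Prlr allele whose exon 5 is floxed was recombined by CreERTM, a tamoxifen-dependent Cre driven by the Pdx1 promoter. These mice received tamoxifen at 4 mg per day for 5 days at 8 weeks of age. The Prlr+/- mice lacked 1 Prlr allele in every tissue, carried no Cre and received no tamoxifen, so the site of the deletion, CreERTM and tamoxifen differ together and cannot be told apart. The β-cell deletion is homozygous by the labels and heterozygous by the methods, and the age is 3 to 4 months by the labels and 4 to 5 months by the methods. The labels do not explain the term CkoWt, and no wild type islets were analysed here. PRLR itself, the targeted gene, was at 45.1 ± 8.19 scaled TPM (SD, n = 4) in βPrlR+/- islets and 40.8 ± 8.97 (SD, n = 3) in Prlr+/- islets, and the groups overlapped. Values are TPM, a length-corrected share of all transcripts in a library, divided by a size factor for each mouse ("scaled TPM"). TPM keeps no depth, so no counting interval is given. In whole islets, fewer cells of a type and less RNA per cell cannot be told apart.

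The BEN domain is a small DNA-binding and protein-binding fold found in nuclear proteins that repress transcription. Members recruit chromatin complexes, among them the nucleosome remodelling and deacetylase complex NuRD, the Polycomb complex PRC2 and the nucleolar remodelling complex NoRC. Most of what is known of them comes from neurons, stem cells and tumours.

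The RefSeq window before the start of the Bend5 gene is shown because this gene carried the difference between the groups. It covers the 250 bases before the annotated start on the plus strand of GRCm38.p6, chr4:111414756-111415005, and capitals mark GC boxes (the letters GGGCGG), which lie here on the minus strand.
Bend5: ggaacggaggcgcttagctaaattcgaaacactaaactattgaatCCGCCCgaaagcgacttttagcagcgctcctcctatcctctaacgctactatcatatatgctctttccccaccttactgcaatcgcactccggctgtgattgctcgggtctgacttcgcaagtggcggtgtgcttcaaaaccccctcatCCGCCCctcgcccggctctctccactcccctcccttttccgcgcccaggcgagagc

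The window holds GGGCGG at 2 positions, -205 and -56 from the start, and 32.7% of the 32851 windows of this length hold it on either strand. It holds 19 CpG dinucleotides, against a median of 6 over all windows. A TATA box, spelled TATAAA, was also searched on both strands, and 12.4% of all windows hold it. The letters CCAAT were found in 33.8% of them. The longer palindrome CCAATTGG, any match of which also counts for the shorter letters, was found in 0.362%. None of these 3 was in the Bend5 window. The motifs were not fixed beforehand, and a match describes letters only. Windows were found for 5 of the 7 members, and the first window of Bend3, Bend4, Bend6 and Nacc2 holds GGGCGG as well.

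BEND5, a sequence-specific repressor described in neural tissue, reached 22.7, 12.3, 17.6 and 15.4 scaled TPM in the islets of βPrlR+/- mice 1 to 4. It was at 3.85, 2.45 and 4.22 in Prlr+/- mice 1 to 3. Each βPrlR+/- mouse was above each Prlr+/- mouse. Group means of 16.98 ± 4.40 (SD, n = 4) and 3.51 ± 0.93 (SD, n = 3) gave a ratio of 4.84. Taken as log2(scaled TPM + 1), a scale that shrinks changes of low values, the difference of Prlr+/- from βPrlR+/- islets was -1.99 (standard error 0.22). Among the 14840 genes tested, limma called 0.0674% at an adjusted p (Benjamini-Hochberg, over all genes) under 0.05, 0.0606% as lower in Prlr+/- islets. The groups did not overlap in 4.95% of genes, and in 3.11% the Prlr+/- islets were the lower ones. These shares stand beside BEND5 as background, and nothing is read from them, because the same difference chose the gene.

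The BEND5 value is the sum of 6 RefSeq transcripts, and most of the difference lay on 1 of them. XR_376343.3, a predicted non-coding transcript, was at 14.8, 7.68, 11.2 and 8.66 scaled TPM in the βPrlR+/- islets. In the Prlr+/- islets it was at 0.148, 0.109 and 0.043. It was the most abundant BEND5 transcript in all 4 βPrlR+/- samples and close to 0 in the 3 Prlr+/- samples. Its share of the gene was 62.03% ± 3.94 (SD, n = 4) against 3.10% ± 1.83 (SD, n = 3), and it held 77.9% of the difference between the group means of the gene.

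A further pair of BEND5 transcripts was lower in each Prlr+/- mouse than in any βPrlR+/- mouse. Over all 28553 transcripts tested the groups did not overlap in 4.43%, and limma called 0.014% as lower at an adjusted p under 0.05, and as for the gene nothing is read from these shares. XM_017320366.1, a predicted coding transcript, was at 5.68, 2.17, 3.07 and 4.52 scaled TPM in the βPrlR+/- islets and at 1.08, 1.21 and 1.64 in the Prlr+/- islets. NR_033793.1, a curated non-coding transcript, was at 2.22, 2.33, 2.86 and 2.01 against 0.647, 0.723 and 0.289. Without XR_376343.3, the other 5 transcripts summed to 6.38 ± 1.37 (SD, n = 4) against 3.41 ± 0.95 (SD, n = 3), and these sums did not overlap either.

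NM_026279.3, the curated coding transcript, went the other way. It was listed at 0 in all 4 βPrlR+/- samples and at 1.90, 0.343 and 1.88 scaled TPM in the Prlr+/- islets. It led the gene in Prlr+/- mice 1 and 3, while XM_017320366.1 led it in mouse 2, where NM_026279.3 was lowest. A value of exactly 0 from a program that divides reads among similar transcripts can be a failed estimate, so no fold is given for it. The remaining pair, XM_006503323.3 and XM_011240594.2, stayed below 0.5 scaled TPM in every mouse.

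**Figure D1:**
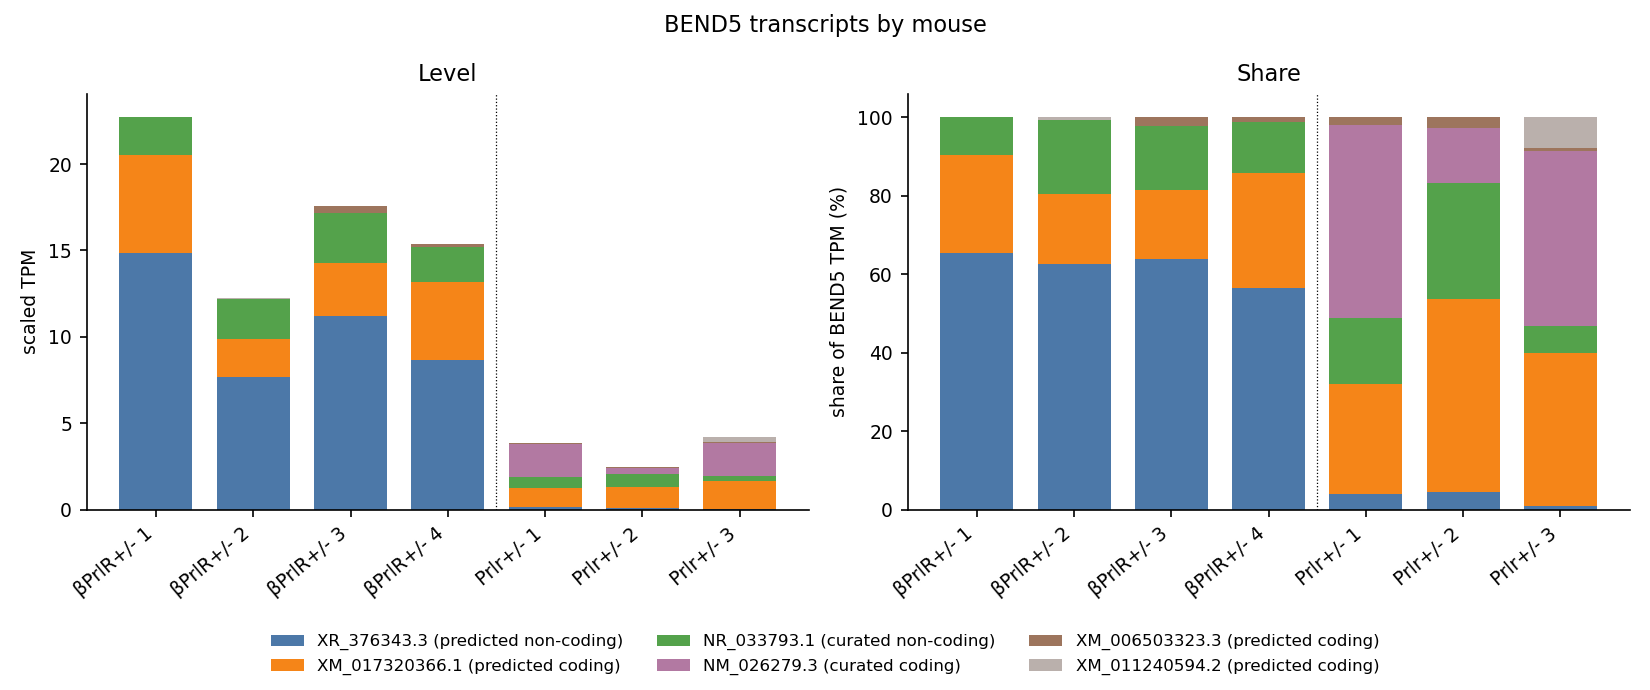
Scaled TPM (left) and share of the BEND5 value in percent (right) of the 6 BEND5 transcripts, 1 bar per mouse, with a dotted line between the βPrlR+/- and Prlr+/- mice. XR_376343.3 fills 56.3% to 65.2% of each βPrlR+/- bar and 1.01% to 4.45% of each Prlr+/- bar, and NM_026279.3 appears only in the Prlr+/- bars.

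Summed by class, the difference was on the non-coding side. The 2 non-coding transcripts summed to 17.04, 10.01, 14.1 and 10.7 scaled TPM in the βPrlR+/- islets and to 0.794, 0.832 and 0.332 in the Prlr+/- islets. The 4 coding transcripts summed to 5.68, 2.26, 3.48 and 4.71 against 3.05, 1.62 and 3.89, and here the groups overlapped. Coding means were 4.03 ± 1.49 (SD, n = 4) and 2.85 ± 1.15 (SD, n = 3), which was 8.75% of the difference of the gene. The non-coding share was 76.5% ± 5.55 (SD, n = 4) against 20.8% ± 13.04 (SD, n = 3), and the shares did not overlap, as in 3.42% of the 2367 genes that have transcripts of both classes. Nothing is read from this, because the switch of transcripts chose the gene and the split into classes was made after the transcript values were seen. Because reads shared between transcripts are divided by estimation, a level of 1 BEND5 transcript is less certain than the sum of all 6.

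BEND3, which binds heterochromatin and CpG-rich promoters and brings in NuRD, PRC2 and NoRC, was at 1.83, 2.29, 2.40 and 2.16 scaled TPM in the βPrlR+/- islets. It was at 2.10, 2.03 and 2.34 in the Prlr+/- islets, inside the range of the βPrlR+/- mice. The log2 difference was -0.0016 (standard error 0.088, adjusted p = 0.9999 from limma, and p = 0.943 by exact two-sided permutation of the mice, where the 35 splits allow no p below 0.0286). NM_199028.2, its curated transcript, led the gene in every mouse, with 74.0% ± 6.51 (SD, n = 4) against 81.5% ± 5.89 (SD, n = 3) of the value.

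The nucleus accumbens associated proteins NACC1 and NACC2 join a BEN domain to a BTB domain, through which such proteins pair and bind corepressors. NACC1 had the highest mean of the members in both groups, at 18.8, 19.7, 18.5 and 18.8 scaled TPM in the βPrlR+/- islets and 18.2, 19.2 and 20.5 in the Prlr+/- islets. The groups overlapped, with a log2 difference of 0.03 (standard error 0.059, adjusted p = 0.9999 from limma, exact permutation p = 0.571). NM_025788.3 made up 72.3% ± 5.49 (SD, n = 4) of it in βPrlR+/- islets and 73.9% ± 5.95 (SD, n = 3) in Prlr+/- islets.

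NACC2 was at 3.59, 3.80, 3.60 and 3.72 scaled TPM in the βPrlR+/- islets and at 3.74, 3.02 and 3.53 in the Prlr+/- islets. Prlr+/- mouse 2 was lowest, and the groups overlapped (log2 difference -0.08, standard error 0.076, adjusted p = 0.9999 from limma, exact permutation p = 0.2). Without Prlr+/- mouse 2 the log2 difference was -0.012. The transcripts of NACC2 were far less even than their sum. NM_026495.3, a curated transcript, held 98.2%, 84.7%, 59.5% and 66.7% of the value in the βPrlR+/- islets and 36.9%, 94.7% and 34.5% in the Prlr+/- islets, and nearly all of the remainder was XM_006498260.1. Prlr+/- mouse 2 was with the highest βPrlR+/- mice and the other two were below all 4, and the groups overlapped (exact permutation p = 0.343). Within groups the SD was 6.96% of the mean for the NACC2 value, 31.5% for NM_026495.3 and 79.9% for XM_006498260.1.

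BEND7 was at 11.04, 10.2, 12.2 and 10.7 scaled TPM in the βPrlR+/- islets and at 11.9, 10.4 and 11.9 in the Prlr+/- islets. The groups overlapped, with a log2 difference of 0.04 (standard error 0.080, adjusted p = 0.9999 from limma, exact permutation p = 0.657). NM_178663.4 led by the mean of the βPrlR+/- mice and NM_001190400.1 by the mean of the Prlr+/- mice. Mouse by mouse, however, either of these led in mice of both groups. NM_178663.4 held 35.1%, 69.6%, 52.5% and 38.0% of BEND7 in the βPrlR+/- islets and 15.8%, 45.8% and 36.8% in the Prlr+/- islets, and these shares overlapped (exact permutation p = 0.286). In 3.92% of the 10022 genes with at least 2 transcripts above 0 the share of the leading transcript did not overlap between the groups, and in 0 of the 6 members other than BEND5. Among these 6 members the leading transcript by group mean differed for BEND7 only, and it did so in 8.39% of the 10022 genes. It differed for BEND5 as well, but nothing is read from that, because the switch of transcripts chose BEND5.

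**Figure D2:**
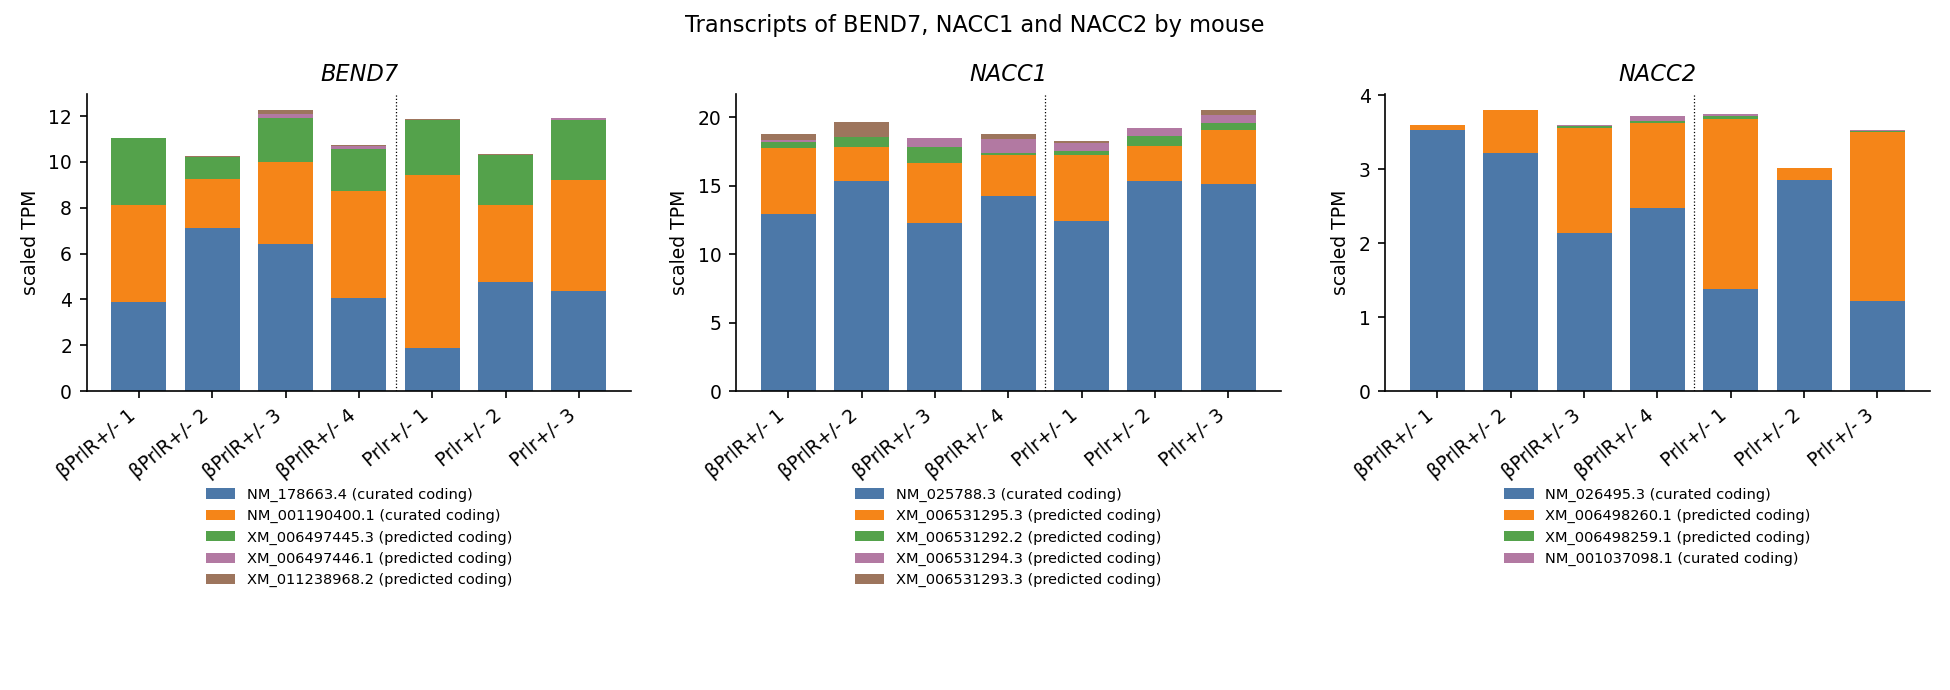
Scaled TPM of the transcripts of BEND7, NACC1 and NACC2, stacked to the gene value, 1 bar per mouse, with a dotted line between the groups. The bars of a gene are of like height, from 3.02 to 3.80 for NACC2, while its lower band, NM_026495.3, runs from 1.22 to 3.53 within the same mice.

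BEND4 and BEND6 were the lowest members in both groups. BEND4 was at 0.932, 0.663, 0.752 and 0.769 scaled TPM in the βPrlR+/- islets and at 0.741, 1.14 and 0.739 in the Prlr+/- islets. Prlr+/- mouse 2 was the highest, and the other two were inside the range of the βPrlR+/- mice (log2 difference 0.07, standard error 0.11, adjusted p = 0.9999 from limma, exact permutation p = 0.6). NM_001164806.1 held 91.5% ± 2.32 (SD, n = 4) and 92.7% ± 4.00 (SD, n = 3) of BEND4. XM_011240763.2 was listed at 0 in all 4 βPrlR+/- samples and at 0.023, 0.023 and 0.027 in the Prlr+/- islets, levels too near 0 to compare.

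BEND6, an antagonist of Notch signalling that binds RBPJ, was at 0.361, 0.429, 0.412 and 0.559 scaled TPM in the βPrlR+/- islets and at 0.274, 0.393 and 0.181 in the Prlr+/- islets. The groups overlapped at 1 mouse, Prlr+/- mouse 2, which was above βPrlR+/- mouse 1. The means were 0.440 ± 0.084 (SD, n = 4) and 0.283 ± 0.11 (SD, n = 3), with an exact permutation p of 0.0857. Its mean of 0.381 TPM was under the minimum of 0.5 for the fit across genes. When all 27935 genes above 0 were tested, its log2 difference was -0.17 (standard error 0.070, adjusted p = 0.9992, unadjusted p = 0.0473, limma).

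Of the 6 members other than BEND5, 5 passed the minimum and limma called 0 of them at an adjusted p under 0.05, against 0.0674% of all genes tested. At an unadjusted p under 0.05 the count was 0 of 5 as well, against 4.52% of all genes. Of their transcripts, 11 passed the minimum and 0 were called at an adjusted p under 0.05 in limma (0.021% of 28553 transcripts) or at an unadjusted p under 0.05 (3.91%). With 5 genes, either background gives a count of 0 or close to it, so these counts do not set the members apart from other genes.

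**Figure D3:**
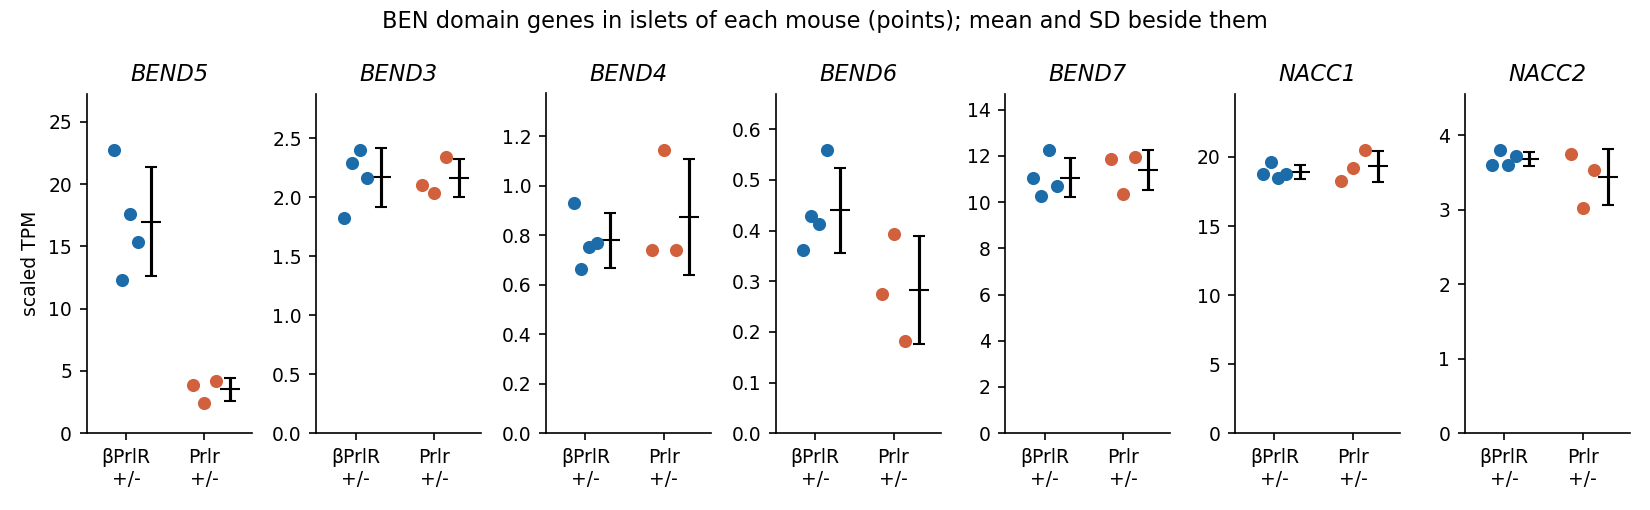
Scaled TPM of the 7 BEN domain genes, 1 point per mouse, with the mean and SD of each group beside the points and a separate axis from 0 for each gene. BEND5, which was chosen for this difference, is the only panel in which the groups do not overlap. It lies at 12.3 to 22.7 in βPrlR+/- islets and 2.45 to 4.22 in Prlr+/- islets, and nothing is read from this contrast.

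Levels per transcript length (TPM is length-scaled) put the members in different orders in the 2 groups. In βPrlR+/- islets the order of mean scaled TPM was NACC1, BEND5, BEND7, NACC2, BEND3, BEND4 and BEND6, and only NACC1 and BEND5 overlapped as neighbours. In Prlr+/- islets it was NACC1, BEND7, BEND5, NACC2, BEND3, BEND4 and BEND6, and only BEND5 and NACC2 overlapped. The other 6 kept their order, and BEND5 stood below BEND7 in Prlr+/- islets. This change of place restates the difference that chose BEND5, so nothing is read from it.

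Genes of the complexes that BEN proteins recruit, and genes of Notch signalling, did not pass the test. All 15 NuRD and histone deacetylase genes were tested, and 0 were called (limma, adjusted p under 0.05). Of these, 7 were lower and 8 higher in Prlr+/- islets, with a median log2 difference of 0.02 against 0.0042 over all genes. In TPM as deposited both medians were -0.12, and the other list medians moved down as well. CDK2AP1, MBD2, RBBP7 and RBBP4 had the highest levels of this list, and CDK2AP1 was at 100.1 ± 4.88 (SD, n = 4) against 111.2 ± 3.73 (SD, n = 3). For PRC2 and NoRC, 8 of 9 genes were tested and 0 were called, with a median of -0.03. SMARCA5 of NoRC was at 27.1 ± 1.88 and 28.6 ± 1.22 scaled TPM, and BAZ2A at 16.5 ± 1.98 and 15.8 ± 0.73. Of 18 Notch genes 16 were tested and 0 were called. In that list 14 were lower and 2 higher, where 48.3% of all genes were lower. The Notch median was -0.09, and it was -0.04 without Prlr+/- mouse 1 and -0.15 without Prlr+/- mouse 2. RBPJ, the DNA-binding partner of Notch, was at 8.12 ± 0.48 against 7.64 ± 0.56. At an unadjusted p under 0.05 (limma) there were 1, 0 and 2 genes in these lists, against 4.52% of all genes. The groups did not overlap in 1, 0 and 2 of the genes tested, against 4.95% of all genes. Of the Notch genes not tested, DLL3 did not overlap, at levels too near 0 to compare, and NOTCH2 overlapped.

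Markers of other cell types were read beside BEND5. Of the 11 β-cell genes tested, led by INS, Ins1 and IAPP, 1 was lower and 10 were higher in Prlr+/- islets, with 0 called and a median log2 difference of 0.30. Their summed level, nearly all of it INS, Ins1 and IAPP, was 451771 to 599464 scaled TPM in βPrlR+/- islets and 582780 to 715629 in Prlr+/- islets. The 10 endothelial genes tested were all lower, with 0 called, a median of -0.22 and a summed level of 204 to 241 scaled TPM in βPrlR+/- islets and 170 to 209 in Prlr+/- islets. PLVAP, EMCN and KDR were the highest of them. Of 14 autonomic neuron genes 10 were tested, 0 were called, 8 were lower and the median was -0.16, and the summed level ran from 152 to 291 against 136 to 165. VIP, NPY and TH led this list, while DBH, CHAT and SLC6A2, which define noradrenergic and cholinergic neurons, were each below 0.3 on average in both groups. CHAT was at 0.239 ± 0.037 (SD, n = 4) against 0.112 ± 0.029 (SD, n = 3), and ELAVL3 of the same list at 0.268 ± 0.032 against 0.148 ± 0.013. Both were under the minimum of 0.5 and not tested, and in both the groups did not overlap. No background share was taken for genes under the minimum. In DBH and SLC6A2, also not tested, the groups overlapped. Of 9 Schwann and satellite glia genes 6 were tested and 4 were lower (0 called, median -0.19), and MBP was the highest of them. That median was -0.34 without βPrlR+/- mouse 2 and -0.04 without βPrlR+/- mouse 3. Summed, this list was at 24.2 to 26.4 against 20.98 to 27.6. Of its genes not tested, GFAP did not overlap between the groups, at 0.421 ± 0.189 (SD, n = 4) against 0.198 ± 0.079 (SD, n = 3). In SOX10 and FOXD3, also not tested, the groups overlapped. All 8 acinar genes, led by CELA2A, PRSS2 and CLPS, were higher by log2 difference (0 called, median 0.12) although their mean levels were lower, and this median turned negative in TPM as deposited (-0.024) and with βPrlR+/- mouse 2 (-0.52), βPrlR+/- mouse 4 (-0.024) or Prlr+/- mouse 2 (-0.28) left out. The summed acinar level ran from 2204 to 19290 and from 5876 to 16217. Over all genes tested 48.3% were lower in Prlr+/- islets. At an unadjusted p under 0.05 there were 1, 5, 4, 1 and 0 genes in the 5 lists, in this order, against 4.52% of all genes. The groups did not overlap in 0, 4, 4, 1 and 0 of the genes tested, against 4.95% of all genes, and no listed gene was at 0 in every mouse. The part of other cell types in the BEND5 difference was not tested.

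The genes most like BEND5 over the 7 mice, by Pearson r of log2(scaled TPM + 1) among the genes tested, were CD248, CADM4, FCGRT, SYT17 and ESR1, with r of 0.989, 0.980, 0.973, 0.972 and 0.971. In all 5 the groups did not overlap, so r over the 7 mice includes the difference between the groups. After each group mean was subtracted, r was 0.949, 0.788, 0.865, 0.531 and 0.700. The genes were picked by r over these same mice, so these values are not independent of the choice, and nothing is read from them. CD248, an adhesion protein of stromal cells, was at 1.03 ± 0.070 (SD, n = 4) and 0.769 ± 0.056 (SD, n = 3) scaled TPM. ESR1, the estrogen receptor gene, was at 69.7 ± 14.7 against 0.229 ± 0.043. CreERTM, present only in the βPrlR+/- islets, is a Cre fused to part of an estrogen receptor, and its part in the ESR1 values was not tested. The most opposite genes were RMRP, ZNF367, Mir8115, Gm30867 and CDKL2, with r from -0.986 to -0.956. In these 5 the groups did not overlap either. With each group mean subtracted, their r, under the same limit, was -0.924, -0.705, -0.391, -0.542 and -0.465. Of these, Mir8115 and Gm30867 were listed at 0 in all 4 βPrlR+/- samples. Among the members, r with BEND5 was 0.56 for NACC2, -0.31 for BEND4, -0.30 for NACC1, -0.07 for BEND3 and -0.01 for BEND7.

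On mouse chromosome 4, in the gene order of RefSeq GRCm38.p6, the 5 nearest tested genes before BEND5 were RNF11, CDKN2C, FAF1, ELAVL4 and AGBL4. The 5 after it were SPATA6, CMPK1, PDZK1IP1, CYP4B1 and EFCAB14. Their log2 differences ran from -0.25 for CYP4B1 to 0.28 for AGBL4, against -1.99 for BEND5. In 2 of the 10 the groups did not overlap (4.95% of all genes), and both were higher in Prlr+/- islets. This count was 1 in TPM as deposited and 6 without Prlr+/- mouse 2. AGBL4, a carboxypeptidase that trims tubulin, whose span in the annotation includes BEND5, was at 2.13 ± 0.072 (SD, n = 4) and 2.83 ± 0.45 (SD, n = 3). ELAVL4, a neuronal RNA-binding protein, was at 10.8 ± 0.41 and 13.3 ± 1.48. Their log2 differences were 0.28 (standard error 0.091, adjusted p = 0.918) and 0.27 (standard error 0.079, adjusted p = 0.807, limma). Whether transcripts of BEND5 and AGBL4 share exon sequence was not tested.

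**Figure D4:**
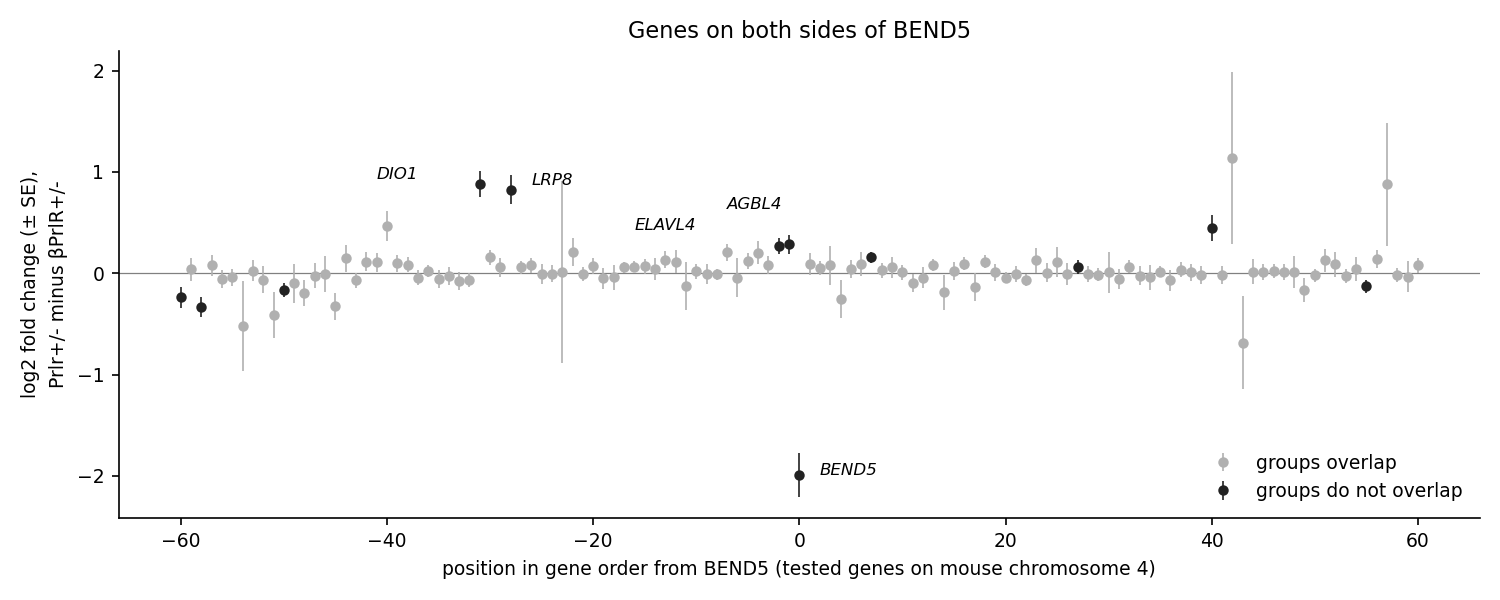
Log2 difference of Prlr+/- from βPrlR+/- mice, with its standard error, of BEND5 and of the 60 tested genes on each side of it in chromosome order, in black where the groups do not overlap. BEND5 lies at -1.99. Before it AGBL4 and ELAVL4 lie at 0.28 and 0.27, and after it SPATA6, in which the groups overlap, lies at 0.09.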

How the data were processed

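Islet RNA of 7 mice was sequenced from poly(A)-selected, strand-specific libraries, and the authors assigned reads to RefSeq transcripts of 2017 with Kallisto 0.42.4. The genome build is not given in the sources used here. The deposited values are TPM by their sums (about 1000000 per mouse), although the methods name FPKM. A gene value is the sum of its transcripts. No column of a mouse was left unused.

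To scale the mice, TPM were divided by median-ratio factors of 0.882 to 1.11. limma 3.58.1 in R 4.3.3 compared the groups on log2(scaled TPM + 1), for features whose mean TPM reached 0.5, with a variance that followed the mean, Benjamini-Hochberg adjustment over all features and a threshold of 0.05. The model was tested on simulated data. Size factors from genes above 0 in every mouse were tried first. Those from genes whose mean TPM reached 0.5 were taken after the results of both had been seen, with 6 and 10 genes called. Each library is 1 mouse, and litters and batches are not given in the sources used here.

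The members, gene lists and tests were chosen with earlier results of these data known. The named genes are the members and their transcripts, PRLR, the 5 genes most and least like BEND5, 5 tested neighbours on each side, and the highest genes of each list, of which some are not reported here. Gene names were matched to RefSeq by transcript accession without its version number (30430 of 34082 matched 1 gene). Of the 30 member transcripts 26 matched in this way, and 16 with the same version. The annotation gave names, gene order and promoter windows only. Plots used matplotlib 3.10.9. Alternatives were a pseudocount of 0.1, no scaling, scaling to the upper quartile, no minimum, transcript shares of group sums and leaving out each mouse.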

Additional observations from a re-analysis of the deposited data

How the results depend on the processing

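No paired analysis was possible because the mice of the groups share no numbers in the labels. The BEND5 log2 difference stayed between -2.24 and -1.81 over the 11 alternatives run for it, and between -2.12 and -1.81 with each mouse left out. The difference in the share of XR_376343.3 stayed between -60.8 and -57.9 percentage points. None of the other 5 members tested, none of their transcripts and no gene of the lists was called under any alternative. Of the 14840 genes tested, 10 were called with the size factors taken after the results of both sets had been seen, against 18 with a pseudocount of 0.1, 4 with all genes above 0, 6 with the size factors from all genes above 0, which were tried first, and 2 to 13 with each mouse left out. Of those, βPrlR+/- mouse 4 gave 2, and βPrlR+/- mouse 1 and Prlr+/- mice 1 and 2 gave 5 each. For transcripts 6 were called, against 11 with all above 0 and 3 (without βPrlR+/- mouse 4) to 11 (without Prlr+/- mouse 2) with a mouse left out, where Prlr+/- mouse 1 gave 10. Of the 10 neighbours of BEND5, 2 did not overlap, 1 with TPM as deposited and 2 to 6 with a mouse left out, 6 without Prlr+/- mouse 2. The causes were not tested.

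Several small differences changed sign, while that of NACC2 stayed negative. TPM as deposited, which moved the median of all genes to -0.12, gave -0.10 for BEND7, -0.11 for NACC1, -0.079 for NM_025788.3 and -0.089 for XM_006531295.3 of NACC1, and -0.011 for NM_199028.2 of BEND3. Upper-quartile scaling gave -0.0030 for NACC1, and the size factors from all genes above 0 gave 0.011 for BEND3. Leaving out each mouse, BEND3 ran from -0.055 to 0.033, BEND4 from -0.030 to 0.12, NACC1 from -0.014 to 0.067, NACC2 from -0.13 to -0.012 (-0.20 in TPM as deposited), NM_001164806.1 of BEND4 from -0.023 to 0.14, XM_006531292.2 of NACC1 from -0.24 to 0.021 and XM_006531295.3 from -0.14 to 0.23. Adjusted p for the 5 members stayed between 0.590 and 0.99999 (limma). With a mouse left out, list medians ran from -0.52 to 0.52 for acinar (βPrlR+/- mice 2 and 1 left out), -0.34 to -0.04 for Schwann and satellite glia, -0.21 to -0.11 for autonomic neuron, -0.28 to -0.15 for endothelial, 0.23 to 0.43 for β-cell, -0.15 to -0.04 for Notch, -0.053 to -0.0041 for PRC2 and NoRC and 7.0e-05 to 0.087 for NuRD genes. In TPM as deposited these medians were -0.024, -0.29, -0.29, -0.35, 0.15, -0.20, -0.17 and -0.12, in this order. The NACC2 share of NM_026495.3 differed by -21.9 percentage points, and by -41.6 (without Prlr+/- mouse 2) to -11.5 (without Prlr+/- mouse 3). TPM holds no depth, so the precision of low values such as BEND6 is unknown.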

Other observations

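Farther along chromosome 4, DIO1 and LRP8, named after their values were seen, lay 31 and 28 tested genes before BEND5. DIO1, which activates and clears thyroid hormone, was at 29.4, 33.5, 33.9 and 39.0 scaled TPM in βPrlR+/- mice and at 71.1, 52.5 and 66.7 in Prlr+/- mice. LRP8, a reelin and apolipoprotein E receptor, was at 3.64, 2.85, 4.91 and 3.09 against 6.80, 7.32 and 7.08. Both were higher in each Prlr+/- mouse, the opposite direction to BEND5, with log2 differences of 0.88 (standard error 0.13, adjusted p = 0.125) and 0.82 (standard error 0.14, adjusted p = 0.252, limma). Of the 120 tested genes within 60 places of BEND5 on either side, 11 did not overlap between the groups (9.17%, against 4.95% of all genes), 52 were lower and 68 higher, and their median log2 difference was 0.01. No test was made of this stretch of the chromosome, whose width was chosen after the values were seen.

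Dixon's gap rule was run on the βPrlR+/- mice only, since groups of 3 were not tested. It marked 0 of 21 sets of values in these 4 mice, those of the member genes and of their transcripts at a mean of at least 0.5 TPM, with one transcript at 0 in all 4 left out.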
